A study of Mus musculus with 24 samples.

Results

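The 10 genes described here, Calb1, Pcp2, Pcp4, Pvalb, Car8, Itpr1, Rora, Foxp2, Skor2 and Ppp1r17, are genes by which Purkinje cells of the cerebellum are commonly recognised. They were chosen by name as 10 rows of the 55416 gene rows in the deposited table, and all 10 were among the 17736 genes with enough counts to be tested. Cerebellar RNA came from 24 neonatal C57BL/6J mice, each sequenced as its own library. The Ethanol group held 12 animals given ethanol by gavage in intralipid from postnatal day 4 on, and the Vehicle group held 12 animals given intralipid in which water took the place of ethanol. Both groups were perfused with heparin in saline at postnatal day 5 or 6, 24 hours after the last gavage, and both held males and females. The animals came from 6 litters, 3 for each age, and every litter gave a male and a female of both treatments. Since age, sex and litter of single animals are not in the labels, every comparison is over both ages and sexes.

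Purkinje cells are the large inhibitory neurons of the cerebellar cortex and its only output. In the first days after birth they settle into a single layer, grow their dendrites and release Sonic hedgehog, which drives division of granule cell precursors, and in rodents they are among the neurons known to be vulnerable to ethanol at this stage. They carry an unusually large calcium signalling apparatus: glutamate acts on a metabotropic receptor, phospholipase C makes inositol trisphosphate, the receptor Itpr1 releases calcium from the endoplasmic reticulum, and buffers such as calbindin take it up.

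Library totals ranged from 26982564 to 38804942 estimated counts, and values below are counts scaled to a common library size (CPM) on library sizes scaled by the trimmed mean of M-values (TMM). All 10 genes were detected in all 24 libraries, and the lowest value of any was 2.82 CPM, for Ppp1r17 in Ethanol X4683. Other cell types were present in these whole-tissue libraries, among them granule neurons, glia and, in 20 libraries, choroid plexus. The choroid plexus gene Ttr stood at 3.57 CPM or less in Ethanol X4568 and X4766 and in Vehicle X4761 and X4770. The 4 midbrain markers summed to 0.524 to 1.23 CPM in Ethanol and 0.450 to 2.17 CPM in Vehicle animals. Vehicle X4768 stood apart among the Purkinje cell genes: of the 24 libraries it had the highest Calb1, Pcp2, Pvalb, Itpr1, Rora and Ppp1r17 and the lowest Foxp2 and Skor2. The same library had the highest summed oligodendrocyte markers (1480 CPM; the sums were 542 to 1116 CPM in Ethanol and 532 to 1480 CPM in Vehicle animals) and the highest Gabra6, a receptor subunit of maturing granule neurons, at 16.2 CPM. Ethanol X4673 had the lowest Car8, Itpr1 and Rora of the 24 libraries and the highest Pcp4. Where a call or its direction changed without either library, or a value moved by over 1.5 times, the value without it is given.

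Among the 10 Purkinje cell genes, 3 were lower in Ethanol than in Vehicle animals (Car8, Pcp4 and Rora), none was higher and 7 did not pass the test. The changes were small: Car8 fell by 11.3%, Pcp4 by 8.33% and Rora by 12.4%. Over all genes tested, 5.8% were called lower, 9.07% higher and 14.9% in either direction at the same threshold, an adjusted p under 0.05 from edgeR's quasi-likelihood test with Benjamini-Hochberg adjustment over all genes. These were 1608 genes higher and 1028 lower, and with upper-quartile scaling 1373 higher and 1396 lower. At an unadjusted p under 0.05 (edgeR) there were 4 lower and 0 higher genes among the 10, with Calb1 the addition. Over all genes, 5041 of 17736 were under that unadjusted p, in either direction. At the adjusted threshold, limma-trend and DESeq2 also called 0 higher and 3 lower. Car8 alone was called without Ethanol X4765, and likewise without Vehicle X4679. The log2 fold change was below 0 for 9 of the 10 genes, where 52.3% of all genes were below 0, and its median was -0.13 over the 10 genes and -0.0057 over all genes tested. Without Vehicle X4768 the fold changes of Pcp2 and Ppp1r17 turned above 0, and the other signs held. Some of these genes are also made outside Purkinje cells (Rora and Pvalb in cortical interneurons, Foxp2 and Pcp4 in other neurons of the hindbrain), and in RNA of whole tissue fewer cells of a type and less RNA per cell cannot be told apart.

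**Figure D1:**
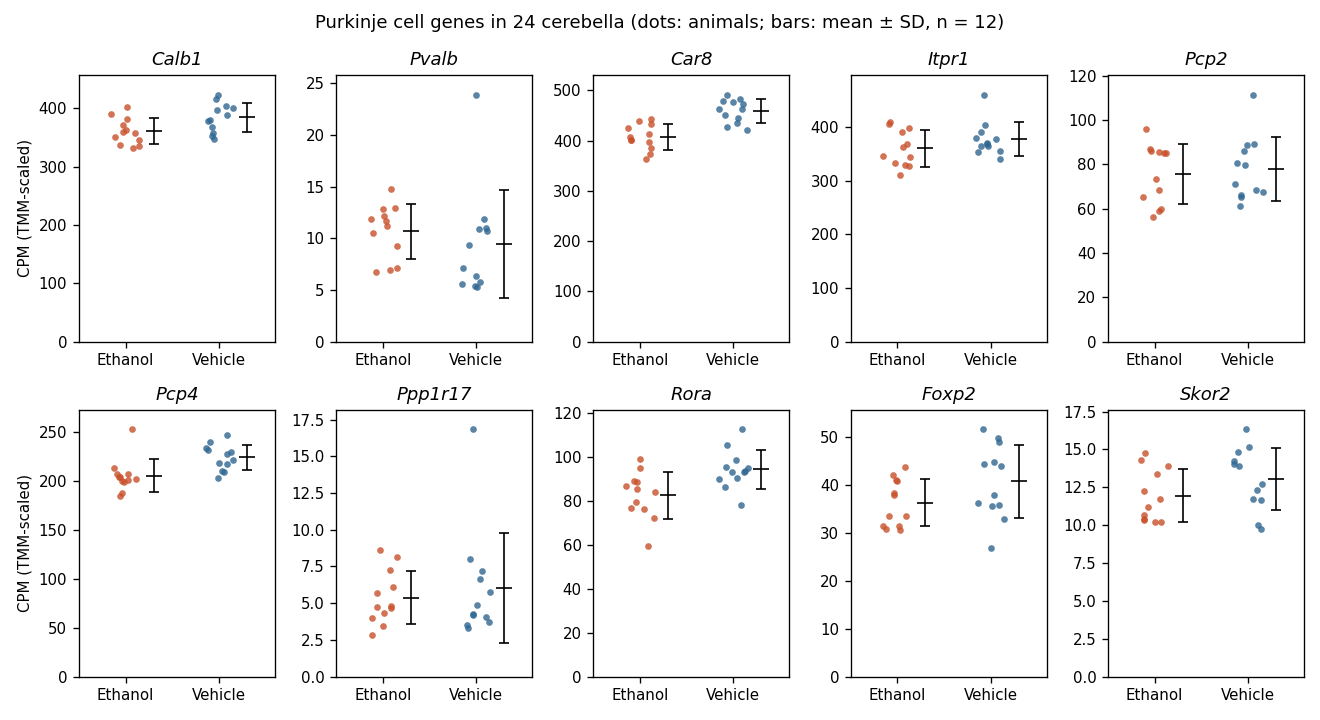
Levels of the 10 Purkinje cell genes in CPM (vertical axes, from 0) in 12 Ethanol (left, red) and 12 Vehicle (right, blue) animals, with bars for mean ± SD. The Ethanol animals lie lowest relative to Vehicle for Car8, where 8 of 12 are below every Vehicle animal, and the single high Vehicle point for Pvalb (23.9 CPM), Ppp1r17 (16.8 CPM), Itpr1 (461 CPM) and Pcp2 (111 CPM) is animal X4768.

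Car8 had the lowest adjusted p of the 10. It encodes a carbonic anhydrase-related protein that has lost enzyme activity and instead binds the inositol trisphosphate receptor and lowers its affinity for the ligand. Its level was 364, 405 and 442 CPM (lowest, median and highest) in Ethanol animals, against 421, 463 and 491 CPM in Vehicle animals. All 12 Ethanol animals lay below the Vehicle median, as they did for 3.24% of all genes tested, and 9 of 12 Vehicle animals lay above every Ethanol animal. No such share is given for the other counts of animals in the text and captions, which are descriptions only. The groups overlapped only between 421 and 442 CPM. The mean was 407 ± 25.2 CPM in Ethanol and 459 ± 23.2 CPM in Vehicle animals (SD, n = 12 each), which is -0.17 on the log2 scale (SE 0.03, adjusted p = 0.000848, edgeR), and this call held under all 38 alternatives run.

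Itpr1, the partner of Car8 and the main calcium release channel of Purkinje cells, did not pass the test. Its level was 310, 354 and 409 CPM (lowest, median and highest) in Ethanol animals, against 340, 369 and 461 CPM in Vehicle animals. The ranges overlapped over most of their length, and 8 of 12 Ethanol animals lay below the Vehicle median. The log2 fold change was -0.066 (SE 0.05, adjusted p = 0.396, edgeR), and -0.037 (adjusted p = 0.614) without Vehicle X4768, the highest of the 24. Whether the effect on Car8 differed from that on Itpr1 was not tested.

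Of the calcium buffers, Calb1 encodes calbindin, the marker by which Purkinje cells are most often counted. It had 332, 359 and 402 CPM (lowest, median and highest) in Ethanol animals, against 347, 385 and 424 CPM in Vehicle animals. Ethanol animals tended to the lower end, with 10 of 12 below the Vehicle median, but the ranges shared most of their length. The log2 fold change of -0.092 (SE 0.04) had an adjusted p of 0.0857 (edgeR), on the far side of the threshold. It passed with upper-quartile scaling (adjusted p = 0.0386), without the animals of run 5 (runs of 4 successive animal numbers, adjusted p = 0.0471), and without any one of Ethanol X4760 (0.0419), Ethanol X4766 (0.0420), Vehicle X4570 (0.0489) and Vehicle X4762 (0.0432).

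Pvalb encodes parvalbumin, a faster buffer that Purkinje cells take up as they mature. It was the only one of the 10 with a fold change above 0, at 0.18 on the log2 scale (SE 0.22, adjusted p = 0.660, edgeR). Levels were 6.72, 11.4 and 14.8 CPM (lowest, median and highest) in Ethanol animals, against 5.30, 8.22 and 23.9 CPM in Vehicle animals. No Ethanol animal was below the lowest Vehicle animal, and the highest value by far was that of Vehicle X4768, without which the log2 fold change was 0.39 (adjusted p = 0.118).

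Pcp2, Pcp4 and Ppp1r17 are small proteins known for their restriction to Purkinje cells or a few neuron types: Pcp2 acts on G proteins of the Gi and Go classes, Pcp4 binds calmodulin and alters how fast it exchanges calcium, and Ppp1r17 is a substrate of cGMP-dependent kinase that inhibits protein phosphatases. Pcp4 had 185, 203 and 253 CPM (lowest, median and highest) in Ethanol animals, against 203, 225 and 247 CPM in Vehicle animals. All Ethanol animals but X4673, the highest of the 24, lay below the Vehicle median, and 6 of 12 lay below every Vehicle animal. The log2 fold change was -0.13 (SE 0.04, adjusted p = 0.0289, edgeR). Without Ethanol X4673 the adjusted p was 0.000640, and the call was lost without Ethanol X4765 (0.0658), without Vehicle X4679 (0.0563), without the 4 low-Ttr libraries (0.134) and on dropping run 1 (0.117), 3 (0.0912), 5 (0.0534) or 6 (0.154), the runs being sets of 4 successive animal numbers.

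For Pcp2 the levels were 56.1, 79.2 and 95.9 CPM (lowest, median and highest) in Ethanol animals, against 61.2, 75.3 and 111 CPM in Vehicle animals. The groups overlapped almost throughout, with 6 of 12 Ethanol animals on each side of the Vehicle median, and the log2 fold change was -0.044 (SE 0.10, adjusted p = 0.826, edgeR). Its sign turned without Vehicle X4768 (0.014, adjusted p = 0.942), and it was -0.067 (adjusted p = 0.712) without Ethanol X4673. The estimated counts of Pcp2 were not whole numbers in any of the 24 libraries, so its value depends on how reads were shared out between overlapping or similar transcripts. Ppp1r17 was low, at 2.82, 4.77 and 8.62 CPM (lowest, median and highest) in Ethanol animals, against 3.33, 4.57 and 16.8 CPM in Vehicle animals. It had the widest spread of the 10, a coefficient of variation of 34.0% in Ethanol and 61.8% in Vehicle animals, and its log2 fold change of -0.16 (SE 0.25, adjusted p = 0.721, edgeR) became 0.095 (adjusted p = 0.783) without Vehicle X4768.

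The remaining members are regulators of transcription. Rora encodes a nuclear receptor whose loss in the staggerer mouse arrests Purkinje cell maturation, Foxp2 is a forkhead factor of postmitotic Purkinje cells, and Skor2 is a corepressor needed for their identity. Rora had 59.4, 84.7 and 98.9 CPM (lowest, median and highest) in Ethanol animals, against 78.0, 93.5 and 113 CPM in Vehicle animals. Ethanol animals lay below the Vehicle median in 10 of 12 cases and 4 were below every Vehicle animal, X4673 being the lowest. The mean was 82.7 ± 10.7 CPM in Ethanol and 94.4 ± 8.80 CPM in Vehicle animals (SD, n = 12 each), or -0.19 on the log2 scale (SE 0.06, adjusted p = 0.0442, edgeR). This call was close to the threshold. It was lost with no filter on low counts (0.108), without the 4 low-Ttr libraries (0.0966), on dropping run 1, 2, 3, 4 or 6 (0.0583 to 0.144), and without any one of Ethanol X4568, X4674, X4681 and X4765 and Vehicle X4571, X4679, X4686, X4697, X4761, X4762 and X4768 (adjusted p from 0.0538 to 0.0791). The sign was negative under every one of the 38 alternatives.

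Foxp2 had 30.6, 35.6 and 43.8 CPM (lowest, median and highest) in Ethanol animals, against 26.9, 40.8 and 51.5 CPM in Vehicle animals. The 6 highest animals were all Vehicle animals of runs 1 to 3, and the lowest, X4768, was also Vehicle. Within runs, the difference in mean log2 CPM was -0.12, -0.31 and -0.35 in runs 1 to 3. It was -0.11, -0.042 and 0.0059 in runs 4 to 6. The log2 fold change was -0.17 (SE 0.09, adjusted p = 0.246, edgeR), with an adjusted p of 0.0524 when the runs of animal numbers were a block. Without Vehicle X4768 it was -0.21 (adjusted p = 0.0808). Skor2 had 10.2, 11.5 and 14.8 CPM (lowest, median and highest) in Ethanol animals, against 9.76, 13.3 and 16.3 CPM in Vehicle animals, with the groups overlapping throughout. Its log2 fold change was -0.13 (SE 0.08, adjusted p = 0.330, edgeR).

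**Figure D2:**
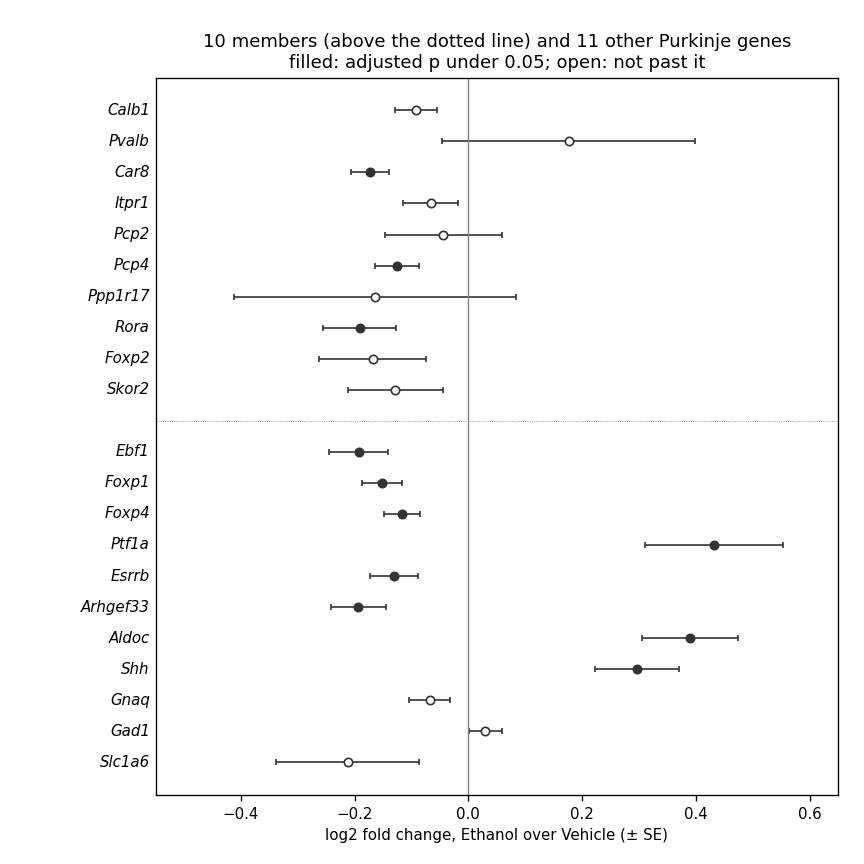
Log2 fold change of Ethanol over Vehicle animals with its standard error (horizontal axis). The 10 Purkinje cell genes are above the dotted line, and 11 other genes of Purkinje cells or their lineage are below it. Filled points passed an adjusted p under 0.05 and open points did not; Car8, Pcp4 and Rora are filled on the left among the 10, and Ptf1a, Aldoc and Shh are filled on the right among the others.

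Pcp2 and Pcp4 belong to the genes that the Rora protein is known to bind and activate in mouse Purkinje cells, and nuclear receptors of its class bind the hexamer AGGTCA, preceded by an AT-rich stretch. The start regions of these 2 genes are shown because Pcp4 was lower in Ethanol animals, like Rora, and Pcp2 did not pass the test. They are examples, and the directions of the other genes so known were not set against that of Rora. Whether the level of Rora bears on that of either gene was not tested. RefSeq windows of 300 bases (250 before and 50 after an annotated start, build GRCm38.p6, not the GRCm39 of the counts) were matched for 4 of the 10 genes (Pcp2, Pcp4, Pvalb and Rora), 8 windows in all. The hexamer was searched on both strands, so as AGGTCA or TGACCT, and was found in 4 of the 8 windows, against 16.3% of all 32851 windows. The windows of Pcp2 overlap each other and 3 of its 4 held a copy, the same copy in 2 of them, so that the 4 windows rest on 3 distinct copies in 2 genes; the windows of Rora and Pvalb held none, and that of Pcp4 held 1. Capitals mark the hexamer in the window of a Pcp2 start (chr8:3625498-3625797, minus strand), where it begins 12 bases before the start, and in that of Pcp4 (chr16:96467356-96467655, plus strand), where it lies on the other strand and begins 164 bases before the start.
Pcp2: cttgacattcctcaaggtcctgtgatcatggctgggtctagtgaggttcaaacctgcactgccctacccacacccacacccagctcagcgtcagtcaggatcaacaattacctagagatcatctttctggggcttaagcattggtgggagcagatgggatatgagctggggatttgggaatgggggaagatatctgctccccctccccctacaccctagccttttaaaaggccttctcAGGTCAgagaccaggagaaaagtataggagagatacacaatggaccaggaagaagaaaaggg
Pcp4: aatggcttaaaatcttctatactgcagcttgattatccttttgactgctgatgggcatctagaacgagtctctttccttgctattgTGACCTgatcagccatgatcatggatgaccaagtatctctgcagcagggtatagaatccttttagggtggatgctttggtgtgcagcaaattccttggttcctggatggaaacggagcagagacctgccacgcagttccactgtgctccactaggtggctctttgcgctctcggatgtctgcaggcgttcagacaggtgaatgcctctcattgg
The search took the hexamer alone, and neither copy marked above directly follows an AT-rich stretch. A match is a description of these letters and not of a bound site.

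Sorted by number, the animals form 6 runs of 4, each with 2 Ethanol and 2 Vehicle animals. That is also the make-up of a litter in this design, but no label ties a run to a litter or an age. The runs serve here as a split by number alone, and differences among them cannot be told apart from those of litter or age. Within runs, Car8, Pcp4 and Rora were each lower in Ethanol animals in 6 of 6 runs. The difference in mean log2 CPM ranged from -0.29 in run 2 to -0.012 in run 5 for Car8, from -0.27 in run 6 to -0.022 in run 4 for Pcp4, and from -0.39 in run 2 to -0.051 in run 5 for Rora. Runs 4 and 5 thus held the differences nearest to 0 for Car8 and Rora. Calb1 and Itpr1 were lower in 5 of 6 runs, with run 5 the exception for both (0.033 and 0.096). With the runs as a block in the edgeR model, the same 3 genes were called lower and none higher.

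**Figure D3:**
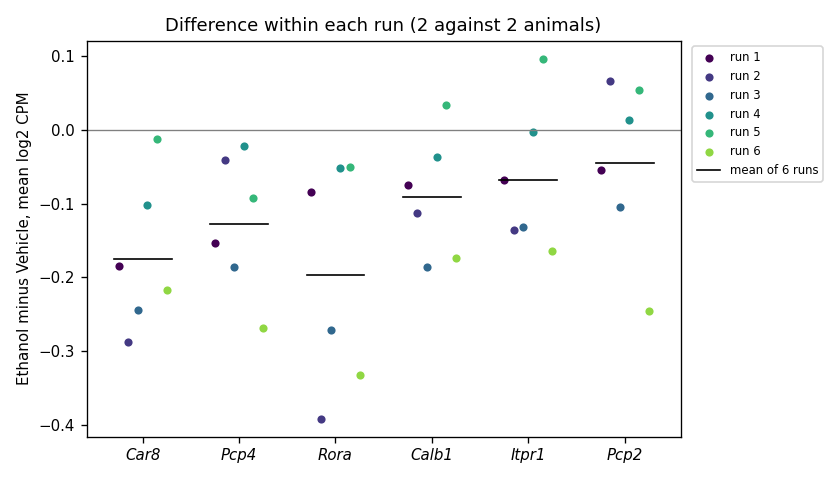
Difference between the mean log2 CPM of 2 Ethanol and 2 Vehicle animals within each run of animal numbers (vertical axis) for 6 Purkinje cell genes, with a line at the mean of the 6 runs. All points of Car8, Pcp4 and Rora lie below 0, while run 5 lies above 0 for Calb1 and Itpr1 and runs 2, 4 and 5 for Pcp2.

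Several of the 10 genes also differed among runs. In an edgeR test among the 6 runs with treatment in the model, chosen after the values were seen, 4 of the 10 passed: Foxp2 (adjusted p = 0.00578), Pcp2 (adjusted p = 0.00679), Skor2 (adjusted p = 0.0227) and Pvalb (adjusted p = 0.0437), where 6.5% of all genes tested passed. Their directions were opposite. Run means of Pcp2 were 63.3 to 70.9 CPM in runs 1 to 3 and 84.4 to 92.3 CPM in runs 4 to 6, and those of Pvalb were 6.24 to 9.07 and 10.8 to 15.1 CPM. Run means of Foxp2 were 40.3 to 44.8 CPM in runs 1 to 3 and 32.2 to 35.2 CPM in runs 4 to 6, and those of Skor2 were 13.4 to 14.5 and 10.6 to 11.8 CPM. Ppp1r17 followed Pcp2, with run means of 3.99 to 4.27 CPM in runs 1 to 3 and 6.17 to 7.95 CPM in runs 4 to 6, but did not pass (adjusted p = 0.157). Calb1 and Car8, with adjusted p of 0.603 and 0.633, did not pass, and their run means spanned 359 to 390 CPM and 418 to 445 CPM.
Without Vehicle X4768, 5 of the 10 passed, Ppp1r17 (adjusted p = 0.0235) being the addition, where 5.15% of all genes did. Without the 4 libraries low in Ttr, 3 of which belong to runs 5 and 6, only Foxp2 (adjusted p = 0.0309) and Skor2 (adjusted p = 0.0373) passed, where 3.02% of all genes did, and Pcp2 had an adjusted p of 0.0573.

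**Figure D4:**
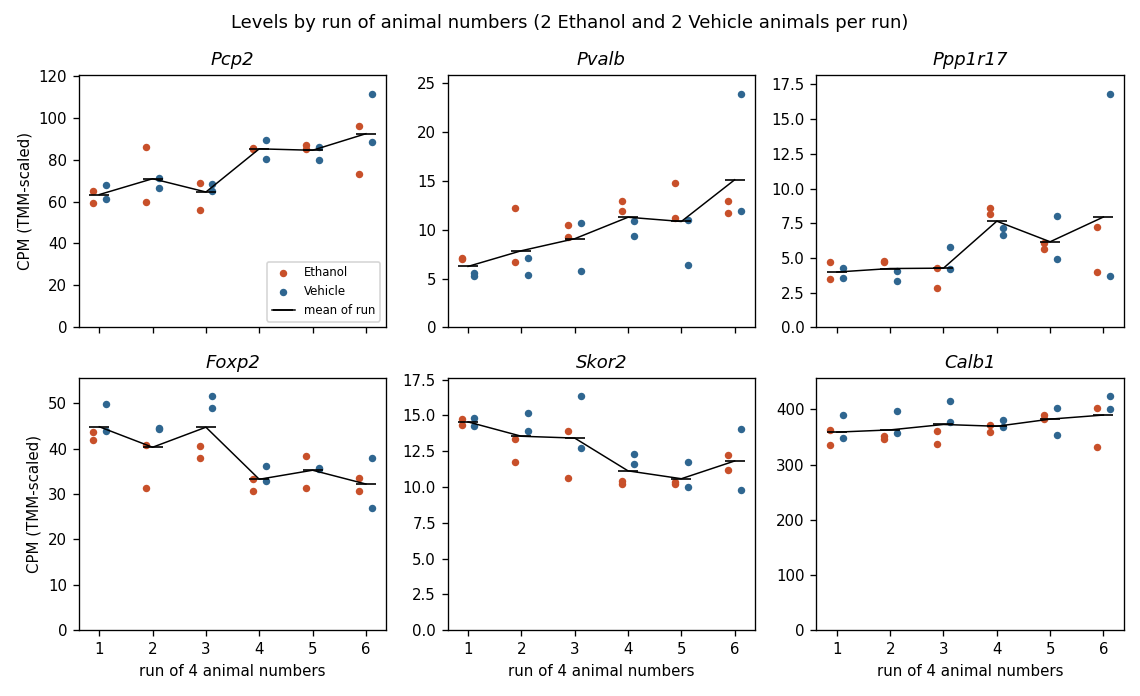
CPM (vertical axes, from 0) of 6 Purkinje cell genes in each animal by run of animal numbers (horizontal axis), with Ethanol animals in red, Vehicle animals in blue and a line through the run means. Pcp2, Pvalb and Ppp1r17 are higher in runs 4 to 6 than in runs 1 to 3, Foxp2 and Skor2 are lower, and Calb1 stays between run means of 359 and 390 CPM.

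The same opposition appeared between single animals. After each treatment's mean was subtracted from log2 CPM, the 45 pairs of the 10 genes had Pearson correlations over the 24 libraries from -0.88 to 0.86, with 28 of 45 above 0 and a median of 0.32. These are descriptions over libraries that share runs, and no p-value is given for them. The highest was that of Calb1 with Car8 (r = 0.86, Spearman's rho = 0.90), which was 0.85 without the 2 animals farthest from the median of Calb1 and 0.88 after the means of each run and treatment were removed. Itpr1 with Rora had r = 0.86 (rho = 0.83), and 0.81 with run means removed. The lowest was that of Pcp2 with Foxp2 (r = -0.88, rho = -0.80), which was -0.85 without the 2 animals farthest from the median of Pcp2 and -0.69 with run means removed. Foxp2 with Skor2 had r = 0.74 (rho = 0.69), and 0.50 with run means removed.
Among all other genes tested, those whose level most resembled the mean z-score of the 10 genes over the 24 libraries, by the same measure, were Lrp8 (r = 0.82), Mtus2 (0.82), Nrep (0.82), Gm45605 (0.81) and Scd3 (0.81). Lrp8 encodes a reelin receptor, and it was also the gene most like Itpr1 (r = 0.94). For single members the gene most alike was Slc1a6 for Ppp1r17 (0.94), Phyhip for Pcp2 (0.95), Igf2bp2 for Foxp2 (0.92), Sox1 for Skor2 (0.90), Luc7l2 for Rora (0.95), Snrnp27 for Pcp4 (0.84) and Gm9899 for Pvalb (0.90), while Calb1 and Car8 were each other's closest. Slc1a6 encodes the glutamate transporter of Purkinje cells.

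Since Calb1 and Car8 moved together from animal to animal, Car8 was also set against Calb1 of the same library, a comparison chosen after the values were seen. The ratio of their CPM was 1.04, 1.13 and 1.19 (lowest, median and highest) in Ethanol animals, against 1.13, 1.19 and 1.25 in Vehicle animals. In 5 of 12 Ethanol animals it was below every Vehicle animal, and in 6 of 12 Vehicle animals above every Ethanol animal. On the log2 scale the ratio was 0.17 ± 0.05 in Ethanol and 0.26 ± 0.04 in Vehicle animals (SD, n = 12 each), a difference of -0.083 (SE 0.03, adjusted p = 0.0499, limma-trend over 17735 genes each set against Calb1), where 0.919% of genes were called lower. On this scale 3747 genes were called higher and 163 lower, and the median difference over all genes was 0.085. This lies at the threshold: leaving out each animal in turn gave adjusted p from 0.0374 to 0.0879, past the threshold for 4 of 24, and without the 4 libraries low in Ttr it was 0.121. None of the other 8 members passed when set against Calb1, where 22% of all genes passed in either direction; Rora came nearest below 0, at -0.11 (SE 0.05, adjusted p = 0.149), and Pvalb nearest above 0, at 0.37 (SE 0.19, adjusted p = 0.172).

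**Figure D5:**
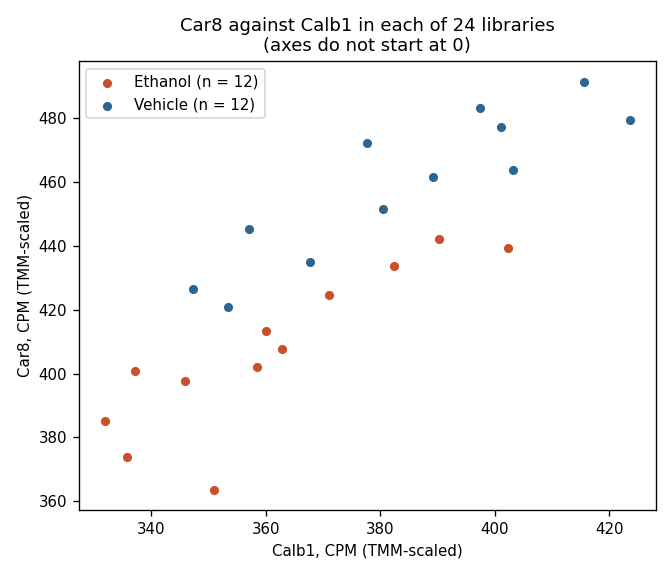
Car8 (vertical axis) against Calb1 (horizontal axis), both in CPM on axes that do not start at 0, in 12 Ethanol (red) and 12 Vehicle (blue) animals. High Car8 goes with high Calb1 within each treatment (r = 0.86 with treatment means removed), and the Ethanol animals lie below most Vehicle animals of the same Calb1.

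A further 39 genes known in Purkinje cells or their lineage were followed by role. In Ethanol animals 3 of the 39 were higher and 5 lower, while 31 missed the threshold (over all genes 9.07% higher and 5.8% lower), and the median log2 fold change was -0.036. It was below 0 for 26 of the 39 genes and for 52.3% of all genes tested. Without Vehicle X4768, 5 of the 39 were higher, with Bhlhe22 and Gad2 added. Among 10 transcription factors of the lineage, 4 were lower and 1 was higher. Foxp1 and Foxp4, forkhead factors that pair with Foxp2, had log2 fold changes of -0.15 (SE 0.03, adjusted p = 0.00392) and -0.12 (SE 0.03, adjusted p = 0.0127). Foxp1 was 36.0, 44.4 and 50.1 CPM (lowest, median and highest) in Ethanol animals, against 46.4, 49.1 and 51.7 CPM in Vehicle animals. Only Ethanol X4683 reached into the Vehicle range, and the share of all genes so separated was not counted. Foxp4 did not pass without run 4 (adjusted p = 0.0579). Ebf1, an early B-cell factor also made by other neurons and by pericytes, had -0.19 (SE 0.05, adjusted p = 0.0133).
Esrrb, an orphan nuclear receptor, had -0.13 (SE 0.04, adjusted p = 0.0336), a call lost with no filter (0.0781), without the 4 low-Ttr libraries (0.0975), without runs 1, 2, 4 or 6 (0.0831 to 0.176) and without any one of Ethanol X4568, X4694, X4765 and X4766 and Vehicle X4679, X4685 and X4697 (0.0512 to 0.0623). Ptf1a, the factor that commits cerebellar progenitors to an inhibitory fate, was higher, at 2.75, 3.94 and 5.75 CPM (lowest, median and highest) in Ethanol animals, against 2.05, 2.87 and 4.29 CPM in Vehicle animals. In 11 of 12 Ethanol animals it was above the Vehicle median, and its log2 fold change was 0.43 (SE 0.12, adjusted p = 0.0156). The call was lost when the 4 low-Ttr libraries (0.0635), run 2 (0.0957) or run 3 (0.0676) were left out. These values are from edgeR.

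Of the 13 genes of the cascade from metabotropic glutamate receptor to calcium release, 0 were called higher or lower by edgeR, limma-trend and DESeq2. The log2 fold change was below 0 for 11 of these 13, for 7 of 9 channel, cytoskeleton and surface genes and for 1 of 4 genes of GABA synthesis and amino acid transport. At an unadjusted p under 0.05 there was 1, the ryanodine receptor gene Ryr1, at -0.25 on the log2 scale (SE 0.10, adjusted p = 0.0938, edgeR). Over all genes, 5041 of 17736 were under that unadjusted p. Ryr1 was lower in 6 of 6 runs of animal numbers. With the runs as a block, edgeR called Ryr1 and another cascade gene lower. Gnaq, a G protein subunit and the cascade gene of highest level, had -0.068 (SE 0.04, adjusted p = 0.220, edgeR). The 4 genes of GABA synthesis and amino acid transport gave 0 calls with the same 3 tools. At an unadjusted p under 0.05 there was 1, Gad2 (5041 of 17736 over all genes). Gad1, which makes most of the GABA of these cells, was 201 ± 9.58 CPM in Ethanol and 197 ± 9.82 CPM in Vehicle animals (SD, n = 12 each; log2 fold change 0.030, SE 0.03, adjusted p = 0.550, edgeR), and Slc1a6 had -0.21 (SE 0.13, adjusted p = 0.284, edgeR), or -0.12 (adjusted p = 0.472) without Vehicle X4768. Of 9 channel, cytoskeleton and surface genes 1 was lower, Arhgef33, a guanine nucleotide exchange factor gene, at -0.19 (SE 0.05, adjusted p = 0.00709, edgeR). Its level was below the Vehicle median in 12 of 12 Ethanol animals, as for 3.24% of all genes tested.

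The secreted signal Shh was higher. It stood at 3.23, 3.93 and 5.01 CPM (lowest, median and highest) in Ethanol animals, against 2.87, 3.30 and 3.77 CPM in Vehicle animals. In 11 of 12 Ethanol animals it was above the Vehicle median, and it was higher in 6 of 6 runs, and its log2 fold change was 0.30 (SE 0.07, adjusted p = 0.00687, edgeR), which passed under all 38 alternatives. Aldoc, the antigen of the zebrin stripes of Purkinje cells, was also higher, at 194, 233 and 330 CPM (lowest, median and highest) in Ethanol animals, against 158, 177 and 238 CPM in Vehicle animals. Its log2 fold change was 0.39 (SE 0.08, adjusted p = 0.00299, edgeR), with 12 of 12 Ethanol animals above the Vehicle median. The share of all genes with 12 of 12 above it was not counted. Astrocytes and Bergmann glia also make Aldoc: of 4 markers of these cells, Aqp4 was higher (log2 fold change 0.35, adjusted p = 0.0114) and Gdf10 lower (-0.25, adjusted p = 0.000395), and the 4 summed to 2986 to 3430 CPM in Ethanol and 2968 to 3344 CPM in Vehicle animals. Their part in the result for Aldoc was not tested.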

How the data were processed

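Polyadenylated RNA of 24 cerebella (12 Ethanol, 12 Vehicle) was sequenced paired-end after Illumina TruSeq mRNA library preparation. The labels name the tissue as brain, the study's methods as cerebellum. The deposited values are estimated counts for each gene, made by the authors through nf-core/rnaseq. Tools named in the submitters' processing notes are STAR, Salmon and limma, and the build is GRCm39. Versions of these tools, the strand setting and the annotation release are not given in the sources used, so reads of a gene and an antisense partner may not be told apart. Counts were rounded, since 10.918% of values were more than 0.01 away from whole. Gene names were shared by 1597 rows. Totals of 26982564 to 38804942 per library limit the precision of genes of a few CPM.

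The filter was filterByExpr, which left 17736 genes, and scaling was by TMM, with factors of 0.9822 to 1.013. The test was that of edgeR 4.0.16 under R 4.3.3 (robust glmQLFit, glmQLFTest, 22 residual degrees of freedom), with Benjamini-Hochberg adjustment over all genes and a threshold of 0.05. Standard errors were taken from the F statistic. The study tested log2 CPM with limma and reported each age on its own. An alternative here was limma-trend of limma 3.58.1 (prior count 2) over both ages, so it does not repeat the study's test. Others were upper-quartile or RLE factors, DESeq2 1.42.0, no filter, a filter of 1 CPM in 12 libraries, and runs of animal numbers as a block. Each animal, each run, or the 4 low-Ttr libraries (under 4 in log2 CPM) were also left out. Levels relative to Calb1 and the test among runs were added after the values were seen. Named genes were the 10 members and, of the other lists, each gene past the test or, where a list had none, the 2 of highest level, plus the genes most correlated with the members; Ryr1, Gad2 and Bhlhe22 were named after their values were seen, and 1 gene that the rule takes is not reported here. The members and lists were chosen with earlier results of these data known. Each animal is its own library by label. The edgeR fit was tested on simulated counts. It called 33 of 49 genes set to 0.8 times their level in Ethanol and 41 of 50 set to 1.3 times. Smaller changes were not simulated, and genes with such changes may be missed. Summaries and plots used Python 3.11.15, numpy 2.4.6, pandas 2.3.3 and matplotlib 3.10.9.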

Additional observations from a re-analysis of the deposited data

How the results depend on the processing

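The call of Car8 held under all 38 alternatives (log2 fold change -0.21 to -0.16). The count of lower members, 3, was 1 (Car8) when the 4 low-Ttr libraries or run 1, 3 or 6 of the animal numbers were left out, 2 with no filter on low counts, 4 with upper-quartile factors, and 1 to 4 when each animal was left out (1 without Ethanol X4765 or Vehicle X4679); no member was called higher under any alternative. Of the other 39 genes, the 3 higher were 5 without run 5 and 3 to 5 without each animal (5 without Vehicle X4768), and the 5 lower were 3 without run 4, 7 with the runs as a block and 4 to 5 without each animal. The log2 fold change of Pcp2 became 0.014 without Vehicle X4768 and 0.0093 without run 6, and that of Ppp1r17 0.095 and 0.050. Over all animals left out singly, Pcp2 ranged from -0.080 to 0.014 and Ppp1r17 from -0.25 to 0.095. Neither passed the test in any fit. Over all genes, the 1028 called lower were 662 with no filter, 612 without the low-Ttr libraries, and 616, 612 and 499 without run 1, run 3 and run 4. The median log2 fold change of all genes stayed between -0.019 and 0.0020 over the alternatives. Litters gave animals to both treatments, but the labels do not say which animals are littermates, so a fit paired by litter was not run. With runs as the block in its place, Car8, Pcp4 and Rora were again the 3 members called lower. Genes of a few CPM, such as Ppp1r17 and Pvalb, had the largest standard errors of the 10, and the cause of each lost call was not tested.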
